A study of Mus musculus with 12 samples.

Results

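The genes described here are 10 cytokine and receptor genes of the IL-10 and IL-6 families: *Il10*, *Il6*, *Osm*, *Lif*, *Il27* and *Ebi3* among the ligands, and *Il10ra*, *Il10rb*, *Il6ra* and *Il6st* among the receptor chains. They were taken by symbol, as the 10 of 48526 rows in the count table whose Ensembl identifier pairs with these names. This rule uses no measured value, but the members were chosen with earlier results of these data known. Of the 10, 8 had at least 10 counts in at least 3 libraries and were tested among 12421 genes, while *Il6* and *Lif* did not reach that level.

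The libraries came from bone marrow-derived macrophages (BMDMs), cells grown out of mouse bone marrow with the macrophage growth factor m-CSF, from 3 female C57Bl/6J mice. On day 7, each mouse's cells stayed untreated or received 100 ng/mL Wnt3a, 100 pg/mL IL-4 or both agents for 16 hr, and gene expression was counted by RNA-seq. The columns deposited for Wnt3a and Wnt3a+IL-4 share reads within each mouse, since in every gene the Wnt3a count lies from 1 to 2 times the Wnt3a+IL-4 count (0 of 48526 genes outside in each mouse). They were therefore resolved by subtraction, into the counts by which the Wnt3a column exceeds Wnt3a+IL-4 (here called the difference) and what is left of Wnt3a+IL-4 once these are taken away (the remainder). Both are read here as libraries of Wnt3a-treated cells, 1 with IL-4 and 1 without, an inference from these bounds that no label states. The labels do not tell which is which, so where it matters both readings are given. The 12 libraries held from 13342492 to 17453377 counts. All 7 macrophage markers checked (among them *Adgre1* and *Csf1r*) passed the count filter, with a summed level from 43590 to 67680 CPM (counts scaled to a common library size). *Lyz2* made up most of that sum, with group means from 37890 to 52990 CPM. The T cell genes *Cd3e*, *Cd3g* and *Cd8a*, the B cell gene *Ms4a1* and the neutrophil gene *Ly6g* had at most 3 counts in any library. Other genes of those lists were counted, with up to 374 counts in a library for *S100a9*, 315 for *Ngp*, 221 for *S100a8*, 26 for *Camp* and 87 for *Cd4*.

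IL-10 is the cytokine by which macrophages restrain their own inflammatory output. It signals through a ligand-binding chain, IL-10Rα, and a chain shared with other cytokines, IL-10Rβ, which together activate JAK1, TYK2 and STAT3. IL-6, oncostatin M (OSM), LIF and IL-27 share another signaling chain, gp130, the product of *Il6st*, each with a partner chain of its own, and they too act through JAK kinases and STAT proteins. IL-27 is built of a subunit encoded by *Il27* and a second encoded by *Ebi3*, which can also pair with other subunits.

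RefSeq promoter windows of the GRCm38.p6 assembly held 5 of the 10 genes (*Il6*, *Lif*, *Ebi3*, *Il6ra* and *Il6st*). The 250 bases before the start in RefSeq are shown for 4 of them. For *Ebi3* and *Lif* this start differs by a few bases from the gene position given further below. *Il6* was hardly detected, *Ebi3* and *Il6ra* lie among those that fell, and *Il6st* rose with IL-4 alone. Each window is written from 5′ to 3′ on the strand of the gene. In *Il6* (chr5:30012864-30013113, plus strand) capitals mark motif letters, and in *Ebi3* (chr17:55952373-55952622, plus strand), *Il6ra* (chr3:89913197-89913446, minus strand) and *Il6st* (chr13:112463820-112464069, plus strand) they mark CG pairs.
Il6: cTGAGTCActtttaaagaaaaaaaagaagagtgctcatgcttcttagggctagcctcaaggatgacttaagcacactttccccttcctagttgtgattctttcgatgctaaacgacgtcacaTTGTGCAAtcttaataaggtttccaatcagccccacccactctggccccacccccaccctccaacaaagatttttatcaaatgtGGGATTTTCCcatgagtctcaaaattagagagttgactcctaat
Ebi3: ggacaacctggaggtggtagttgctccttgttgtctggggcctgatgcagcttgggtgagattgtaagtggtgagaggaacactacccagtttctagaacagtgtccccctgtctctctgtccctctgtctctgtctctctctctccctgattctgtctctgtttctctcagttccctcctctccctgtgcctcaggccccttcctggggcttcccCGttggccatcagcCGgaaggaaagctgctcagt
Il6ra: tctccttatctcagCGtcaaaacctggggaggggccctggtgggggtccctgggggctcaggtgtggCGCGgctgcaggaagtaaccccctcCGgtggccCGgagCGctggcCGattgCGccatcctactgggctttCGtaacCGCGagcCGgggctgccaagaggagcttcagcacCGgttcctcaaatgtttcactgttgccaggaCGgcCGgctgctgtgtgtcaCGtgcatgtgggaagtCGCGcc
Il6st: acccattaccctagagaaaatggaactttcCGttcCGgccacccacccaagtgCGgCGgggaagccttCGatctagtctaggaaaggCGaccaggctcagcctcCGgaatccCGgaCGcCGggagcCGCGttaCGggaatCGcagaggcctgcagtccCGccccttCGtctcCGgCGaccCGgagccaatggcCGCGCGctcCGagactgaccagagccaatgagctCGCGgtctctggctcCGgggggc
On either strand, 7 motifs were searched for: GAS (TTCNNNGAA), a STAT6-type GAS (TTC and GAA with 4 bases between), the TCF/LEF core (CTTTGA), AP-1 (TGAGTCA), kappaB (GGGA and TTCC with 2 bases between), C/EBP (TTGNGCAA) and the PU.1 core (GAGGAAGT). The *Il6* window held an AP-1 match 249 bases before the start, a C/EBP match at 128 and a kappaB match at 44. The *Lif* window, which is not shown, held an AP-1 match 228 bases before the start in RefSeq. Among 32851 windows of the same length, 4.46% held AP-1, 2.61% C/EBP and 1.21% kappaB. The windows of *Ebi3*, *Il6ra* and *Il6st* held none of the 7, which occur in between 1.21% and 13.8% of windows. The *Il6st* and *Il6ra* windows were rich in CG pairs, with 26 and 18 against a median of 6 over all windows, whereas *Il6* had 3 and *Ebi3* 2. A match of letters describes the sequence and is not evidence of binding.

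Levels can be compared between genes only per length, here as CPM per kilobase of annotated exon. In untreated cells the receptors led: *Il10ra* had 118 ± 5.20 (SD, n = 3 mice) and *Il10rb* 80.2 ± 6.72 CPM per kilobase, above 97.6% and 96.3% of the genes tested. *Ebi3* followed at 66.2 ± 5.78, the most abundant ligand subunit. *Il6ra* (20.3 ± 1.24) and *Il6st* (13.1 ± 0.781) stood lower, *Osm* had 6.14 ± 0.532, and *Il27* (1.56 ± 0.616) and *Il10* (1.47 ± 0.227) were close to each other. *Ebi3*, which shares a cytokine with *Il27*, was thus measured at 47.3 ± 19.3 times the level of *Il27* per kilobase.

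**Figure D1:**
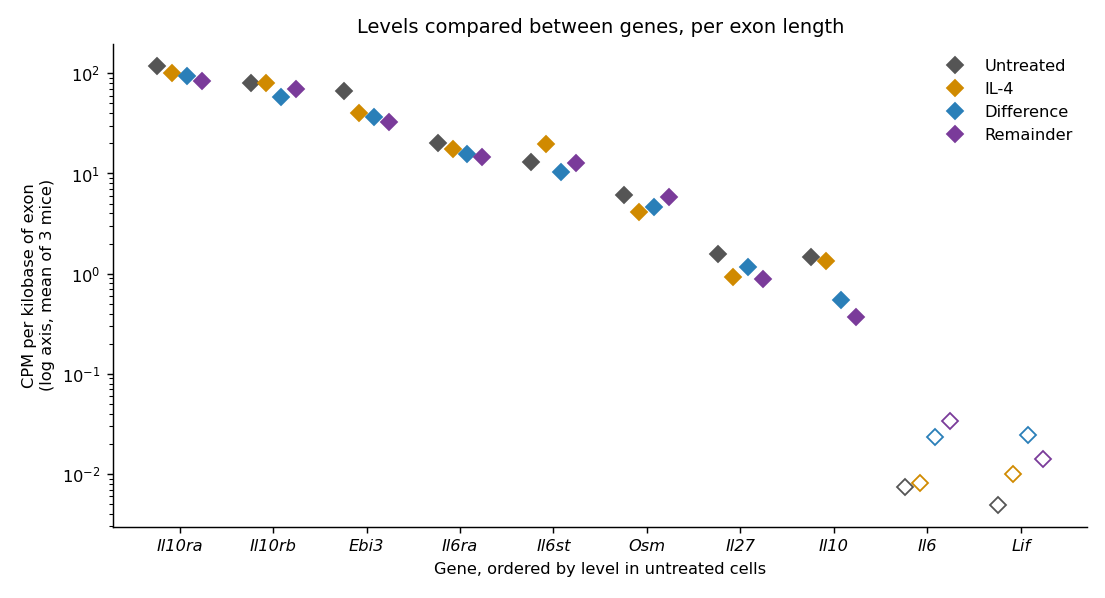
Mean level of each of the 10 genes per kilobase of exon (CPM per kilobase, log axis) in the untreated, IL-4, difference and remainder libraries (3 mice each), ordered by the untreated level. *Il10ra* is highest in every group, and the open symbols of *Il6* and *Lif* rest on at most 5 counts a group.

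*Il6* and *Lif*, the genes of IL-6 and of leukemia inhibitory factor, were at or near the limit of detection. *Il6* (ENSMUSG00000025746, chromosome 5 from 30013114 to 30019981) had 1, 0 and 0 counts in untreated cells of mouse 1, 2 and 3, and 1, 0 and 0 with IL-4. It had 3, 0 and 0 counts in the difference and 2, 2 and 0 in the remainder. *Lif* (ENSMUSG00000034394, chromosome 11 from 4257557 to 4272514) had 0, 1 and 0 counts untreated and 1, 0 and 1 with IL-4. Its counts were 0, 4 and 1 in the difference and 1, 2 and 0 in the remainder. A floor of 3 counts over the 3 libraries of a group stands for about 0.0599 to 0.065 CPM, and only the 4 *Il6* counts of the remainder and the 5 *Lif* counts of the difference exceeded it. The highest level that these counts allow was 0.215 CPM for *Il6* (exact Poisson 95% interval from 0.0229, remainder) and 0.245 CPM for *Lif* (from 0.0341, difference). Such intervals cover counting error only. A fall or a small rise of either gene was not detectable at this depth, while a rise beyond these levels lies outside the counting intervals.

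*Il10* itself was lower in both kinds of Wnt3a-treated library. The gene (ENSMUSG00000016529, chromosome 1 from 131019845 to 131024974) had 37, 25 and 35 counts in untreated cells and 24, 31 and 25 with IL-4, but 15, 10 and 9 in the difference and 6, 5 and 12 in the remainder. As CPM, the untreated libraries had 1.99, 1.61 and 2.20 and the IL-4 libraries 1.44, 1.98 and 1.80, so these groups overlapped. The difference had 0.859, 0.611 and 0.654 CPM and the remainder 0.373, 0.307 and 0.788, and every one of these 6 libraries lay below every library without Wnt3a. The log2 fold change against untreated cells was -1.43 in the difference (SE 0.31, adjusted p = 0.004), 2.70-fold lower, and -1.98 in the remainder (SE 0.33, adjusted p = 0.00048), 3.94-fold lower. IL-4 alone gave -0.15 (95% interval -0.75 to 0.44, adjusted p = 0.87). Remainder and difference were not distinguished (-0.55, interval -1.36 to 0.27, adjusted p = 0.47). Without mouse 3, the change in the difference had an adjusted p of 0.059, at a log2 fold change of -1.28. The change in the remainder kept its call in all 25 alternatives, with log2 fold changes from -2.47 to -1.70.

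In these bulk libraries, fewer cells that express a gene and less RNA of it per cell cannot be told apart.

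The chains of IL-27 differed in abundance and in how well they were measured. *Ebi3* (ENSMUSG00000003206, chromosome 17 from 55952640 to 55957022) had 69.5, 77.0 and 82.8 CPM in untreated cells of mouse 1, 2 and 3. It had 45.1, 44.4 and 49.5 CPM with IL-4, 42.5, 42.1 and 42.8 in the difference and 43.5, 32.6 and 37.4 in the remainder. All 9 treated libraries lay below all 3 untreated ones, whatever the treatment. *Ebi3* fell by 0.72 on the log2 scale with IL-4 (SE 0.10, adjusted p = 0.00082), by 0.85 in the difference (adjusted p = 3.5e-05) and by 1.01 in the remainder (adjusted p = 5.9e-06). The remainder and the difference overlapped (-0.17, interval -0.39 to 0.06, adjusted p = 0.41). Without mouse 3 the IL-4 change was -0.71 with an adjusted p of 0.09. Of the *Ebi3* exon bases, 23.4% overlap *Gm16712* on the other strand, and how the counting treated strand is not given in the sources used here. *Gm16712* itself had at most 7.58% of the *Ebi3* count in any library.
*Il27* (ENSMUSG00000044701, chromosome 7 from 126589010 to 126594941) had 43, 21 and 18 counts untreated and 13, 20 and 11 with IL-4. It had 23, 21 and 13 counts in the difference and 18, 13 and 12 in the remainder. Untreated mouse 1 stood highest at 2.31 CPM, against 1.35 and 1.13 CPM in the other untreated libraries, and no comparison passed the test. The log2 fold changes against untreated cells were -0.76 with IL-4 (interval -1.46 to -0.05, adjusted p = 0.30), -0.44 in the difference (-1.12 to 0.24, adjusted p = 0.35) and -0.83 in the remainder (-1.54 to -0.13, adjusted p = 0.08). At these counts a fall as large as that of *Ebi3* lies within each interval. Of its exon bases, 10.1% are shared with *Apobr* on the other strand, which had at least 2147 counts in every library, up to 19560% of the *Il27* count. Since the handling of strand is not given in the sources used here, the *Il27* counts are uncertain, and the share of exon bases sets no limit to this.

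*Osm*, the gene of oncostatin M, a gp130 cytokine made by activated macrophages, had a different order of groups. The gene (ENSMUSG00000058755, chromosome 11 from 4236420 to 4241026) had 15.2, 12.8 and 13.9 CPM untreated and 9.83, 9.14 and 8.87 with IL-4. It had 11.0, 9.89 and 10.5 CPM in the difference and 15.3, 12.1 and 12.3 in the remainder. The remainder thus overlapped the untreated libraries, while all IL-4 and difference libraries lay below both. With IL-4 *Osm* fell by 0.59 on the log2 scale (SE 0.12, adjusted p = 0.015), and in the difference by 0.42 (SE 0.12, adjusted p = 0.024). The remainder gave -0.08 against untreated cells (interval -0.34 to 0.18, adjusted p = 0.68) and was 1.42-fold higher than IL-4 (log2 fold change 0.51, adjusted p = 0.009). The IL-4 call was lost without any 1 of the mice (adjusted p = 0.065, 0.06 and 0.35 without mouse 1, 2 and 3), and so was the call in the difference (0.073, 0.076 and 0.19). The call of the remainder against IL-4 was lost without mouse 1 (0.058) or mouse 3 (0.13).

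**Figure D2:**
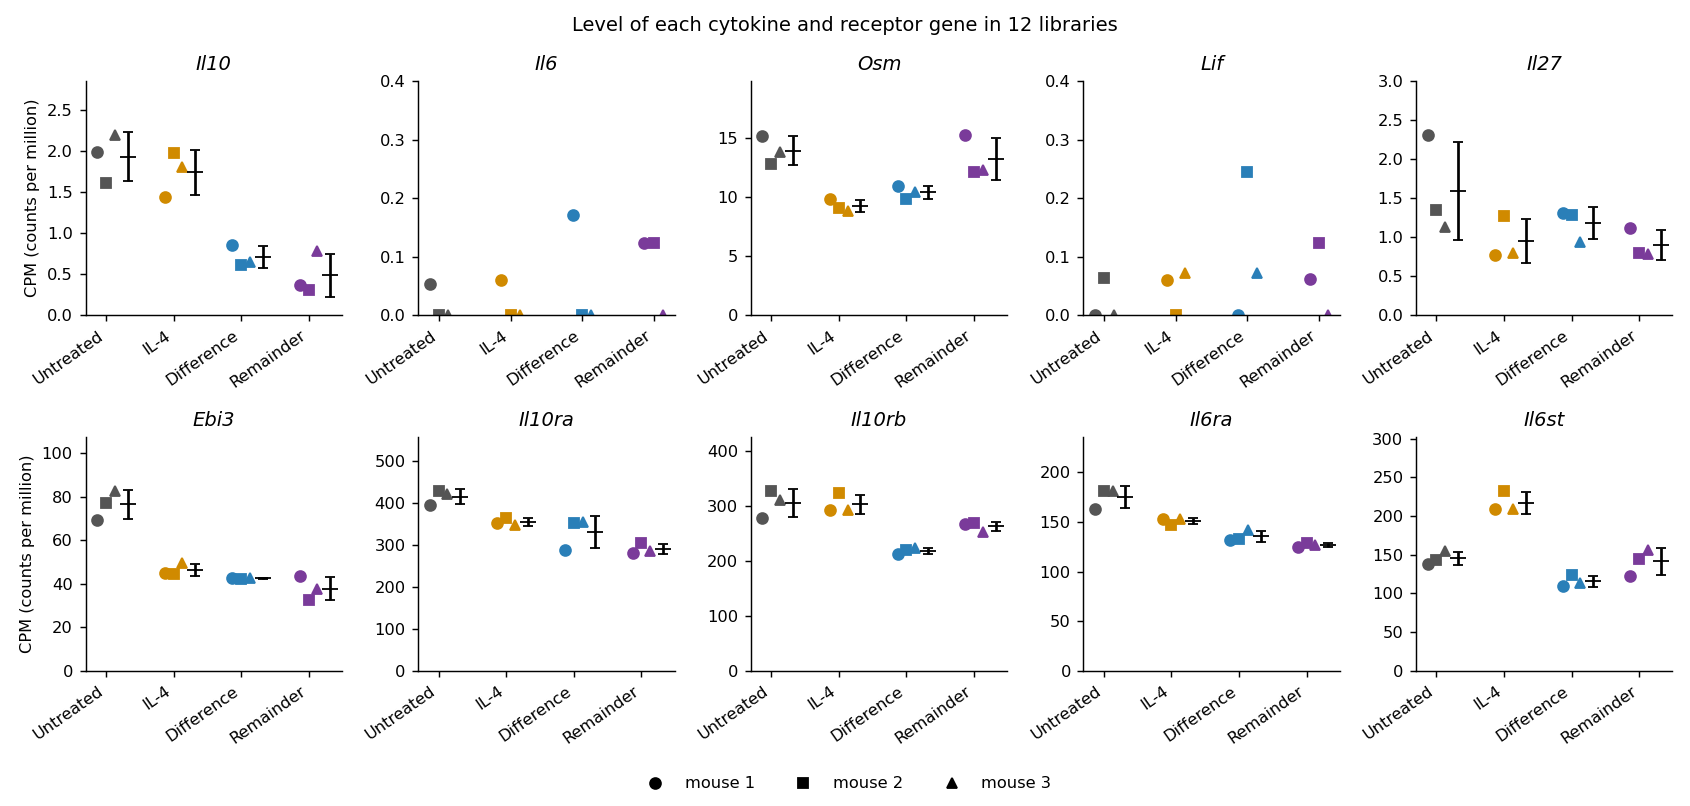
CPM of each of the 10 genes in the 12 libraries, with 3 mice per group as separate symbols and the mean ± SD as a black bar (not drawn for *Il6* and *Lif*). *Il10* separates the libraries with Wnt3a from those without, *Ebi3* the untreated libraries from all others, and *Il6st* the IL-4 libraries from all others.

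Both chains of the IL-10 receptor fell in the difference, and *Il10ra* also in the remainder. *Il10ra*, which encodes the ligand-binding chain (ENSMUSG00000032089, chromosome 9 from 45253837 to 45269149), had 394, 429 and 420 CPM untreated and 352, 365 and 347 with IL-4. It had 287, 351 and 353 CPM in the difference and 281, 303 and 286 in the remainder. All treated libraries were below all untreated ones, with the remainder lowest on average at 290 ± 11.8 CPM (SD, n = 3). *Il10ra* fell by 0.33 on the log2 scale in the difference (SE 0.08, adjusted p = 0.012) and by 0.51 in the remainder (SE 0.08, adjusted p = 0.00042). IL-4 alone gave -0.22 (interval -0.41 to -0.04, adjusted p = 0.21). Without mouse 3, the call in the difference was lost (adjusted p = 0.11).
*Il10rb*, the gene of the shared chain (ENSMUSG00000022969, chromosome 16 from 91406164 to 91425834), had 278, 328 and 311 CPM untreated and 294, 323 and 293 with IL-4. It had 213, 220 and 224 CPM in the difference and 268, 269 and 253 in the remainder. Here the difference was lowest, and its 3 libraries lay below all others. The fall in the difference was 0.48 on the log2 scale (SE 0.08, adjusted p = 0.00039). The remainder gave -0.21 (SE 0.08, adjusted p = 0.054), a value near the threshold that was called with DESeq2 (adjusted p = 0.034). IL-4 alone gave -0.01 (interval -0.17 to 0.15, adjusted p = 0.98). Of the exon bases of *Il10rb*, 14.9% also belong to *Gm21970* on the same strand, which had 0 counts in every library, so its counts are uncertain to that extent.

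Of the receptor chains of IL-6, edgeR called *Il6st* and not *Il6ra* with IL-4. *Il6ra*, the gene of the ligand-binding chain of IL-6 (ENSMUSG00000027947, chromosome 3 from 89864059 to 89913196), had 163, 181 and 181 CPM untreated and 153, 147 and 153 with IL-4. It had 132, 133 and 142 CPM in the difference and 124, 129 and 126 in the remainder. The order of groups was the same in each mouse and the 4 ranges did not overlap. *Il6ra* fell by 0.37 on the log2 scale in the difference (SE 0.07, adjusted p = 0.0011) and by 0.47 in the remainder (SE 0.07, adjusted p = 0.00014). IL-4 alone gave -0.21 (interval -0.36 to -0.07, adjusted p = 0.13), and this difference was called with DESeq2 (adjusted p = 0.049). Without mouse 3, the call in the difference was lost (adjusted p = 0.052).
*Il6st*, the gene of gp130 (ENSMUSG00000021756, chromosome 13 from 112464070 to 112510086), was the 1 member that IL-4 raised. It had 138, 143 and 155 CPM untreated and 209, 233 and 209 with IL-4, a rise in all 3 mice. It had 109, 124 and 114 CPM in the difference and 123, 144 and 157 in the remainder. The IL-4 libraries thus lay above all others, the difference below the untreated libraries, and the remainder spread across the untreated range. With IL-4 the rise was 1.49-fold (log2 fold change 0.58, SE 0.09, adjusted p = 0.0022). The difference was lower than untreated by 0.33 on the log2 scale (log2 fold change -0.33, SE 0.09, adjusted p = 0.019), and the remainder gave -0.04 (interval -0.24 to 0.16, adjusted p = 0.80). Against IL-4, *Il6st* was 1.88-fold lower in the difference (log2 fold change -0.91, adjusted p = 6.3e-06) and 1.53-fold lower in the remainder (-0.62, adjusted p = 0.00024). Without mouse 3 the IL-4 rise was 0.65 with an adjusted p of 0.057, and the change in the difference was -0.27 with an adjusted p of 0.22. The latter was also lost without the untreated library of mouse 3 (adjusted p = 0.07) or the difference library of mouse 1 (0.066) or mouse 3 (0.062).

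Within a library, the ratio of partner chains does not depend on the library's scaling. Per kilobase, *Il6st* stood to *Il6ra* as 0.647 ± 0.0291 (SD, n = 3) in untreated cells and as 1.12 ± 0.0970 with IL-4, a 1.73-fold higher ratio with no overlap. The ratio was 0.666 ± 0.0523 in the difference, overlapping the untreated libraries, and 0.870 ± 0.0983 in the remainder, above the untreated and below the IL-4 range. For *Il10ra* to *Il10rb* it was 1.48 ± 0.0610 untreated, 1.27 ± 0.0400 with IL-4, 1.64 ± 0.153 in the difference and 1.20 ± 0.0496 in the remainder. The remainder and IL-4 overlapped, and both lay below the untreated and the difference libraries. *Ebi3* to *Il27* overlapped in all comparisons. With 3 mice against 3, a two-sided exact permutation test cannot go below p = 0.1, which the non-overlapping pairs reached (0.2 after adjustment over the 18 ratio comparisons).

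**Figure D3:**
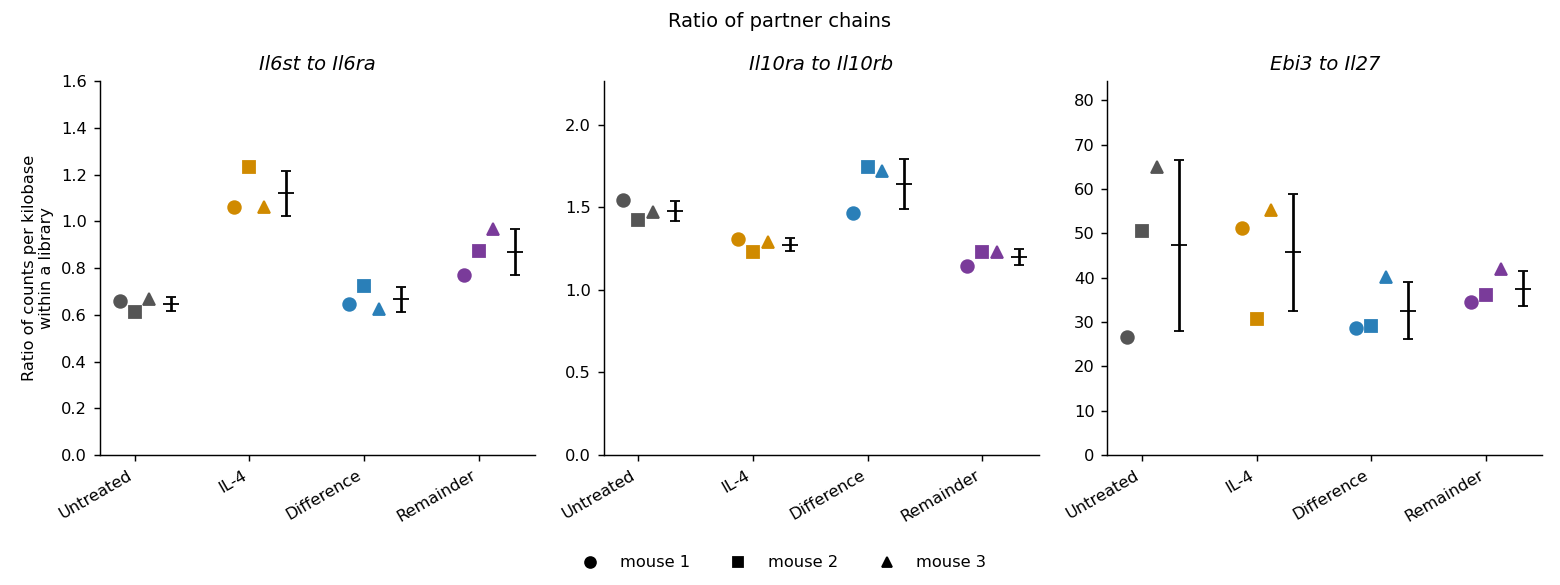
Ratio of counts per kilobase of exon of 3 partner pairs within each library, with mice as separate symbols and the mean ± SD (n = 3) as a black bar. The *Il6st* to *Il6ra* ratio of the IL-4 libraries, from 1.06 to 1.23, lies above all others.

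Over the set, IL-4 against untreated called 3 of the 8 tested genes, *Il6st* higher and *Osm* and *Ebi3* lower, where 3.4% of the 12421 genes tested were called. The median log2 fold change of the 8 was -0.22, beside -0.003 over all genes. The difference against untreated called 7 of the 8, all lower, where 23.2% of all genes were called and 11.4% were called lower. *Il27* was the exception, and the medians were -0.43 and -0.01. Without mouse 3, edgeR called 0 of the 8 with IL-4 (3 at an unadjusted p under 0.05) and 2 (*Il10rb* and *Ebi3*) in the difference. Over all 12421 genes, that fit called 88 with IL-4 and 1227 in the difference, against 422 and 2884 with all mice.
The remainder against untreated called 4 of the 8 lower (*Il10*, *Il10ra*, *Ebi3* and *Il6ra*), where 25.3% of all genes were called and 11.7% were called lower, with medians of -0.49 and -0.02. Changes with IL-4, in the difference and in the remainder were all measured against the same 3 untreated libraries. Against IL-4, the difference called 3 (*Il10*, *Il10rb* and *Il6st*, all lower, where 20.3% of all genes were called and 10.3% were called lower). The *Il10* call was lost without mouse 2 (-1.08, adjusted p = 0.11) or mouse 3 (-1.20, adjusted p = 0.08). Also against IL-4, the remainder called 5, *Osm* higher and *Il10*, *Il10ra*, *Il6ra* and *Il6st* lower (where 20.3% of all genes were called). The calls of *Il10ra* and *Il6ra* between the remainder and IL-4 were small (-0.29 and -0.26 on the log2 scale). Each was lost in several leave-one-out fits, with adjusted p up to 0.24 for *Il10ra* and 0.23 for *Il6ra* without mouse 3.

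**Figure D4:**
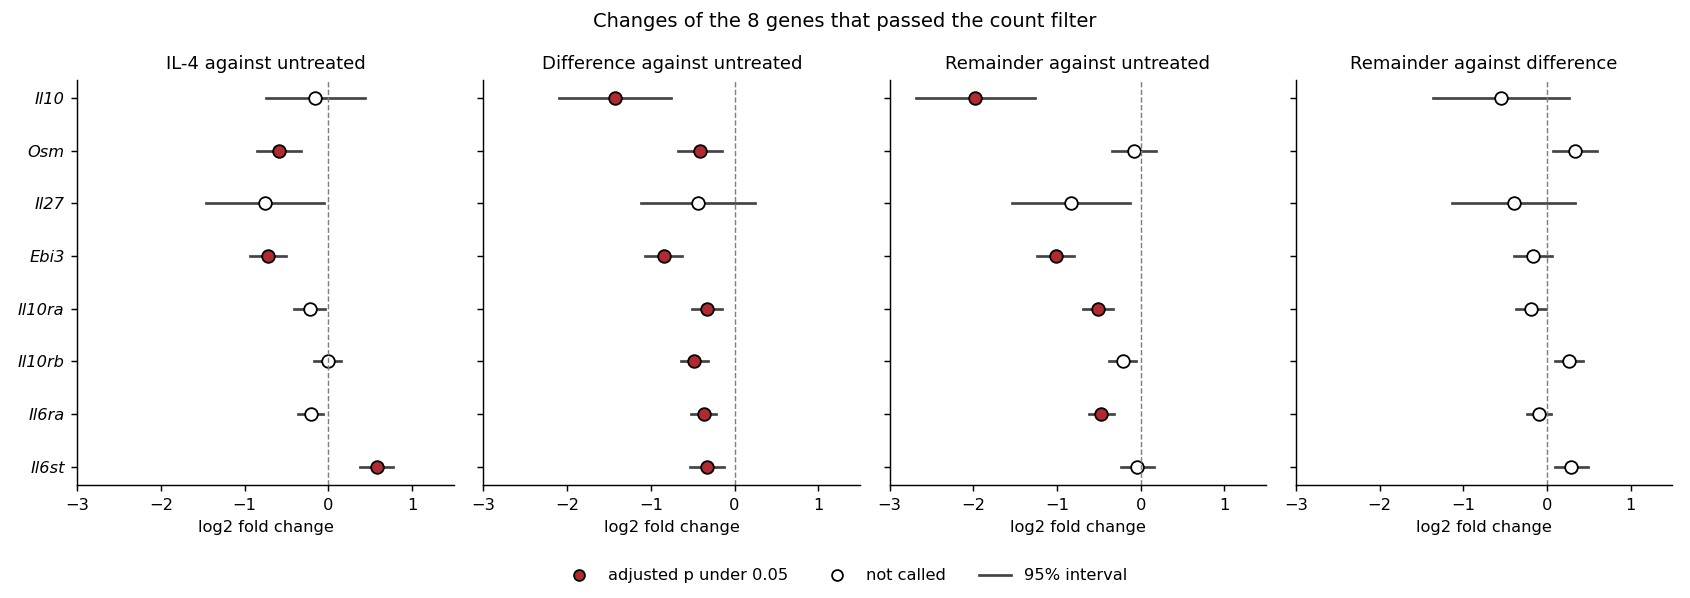
Log2 fold change (points) and 95% interval (lines) of the 8 tested genes in 4 comparisons, filled where the edgeR adjusted p was under 0.05. All 7 filled points of the difference and all 4 of the remainder lie below 0, and *Il6st* with IL-4 is the 1 filled point above it.

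The remainder against the difference compares Wnt3a-treated cells with and without IL-4, in a direction that the labels do not give. None of the 8 genes was called by edgeR (0 of 8, with 4 at an unadjusted p under 0.05), where 5.25% of all genes were called, and DESeq2 called *Il10rb* (0.26, adjusted p = 0.017). The widest intervals were those of *Il10* (log2 fold change -0.55, interval -1.36 to 0.27) and *Il27* (-0.40, interval -1.13 to 0.34). That of *Osm* ran from 0.07 to 0.60 (log2 fold change 0.34, adjusted p = 0.14) and that of *Il6st* from 0.09 to 0.49 (0.29, adjusted p = 0.096).
Whether Wnt3a altered the IL-4 effect was tested as an interaction under both readings. With the remainder read as Wnt3a+IL-4, edgeR called 0 of the 8 (4 at an unadjusted p under 0.05), where 0.105% of all genes were called. *Osm* had the lowest adjusted p, 0.082, at an interaction of 0.93 (SE 0.17), and DESeq2 called it (adjusted p = 0.006). With the difference read as Wnt3a+IL-4, 2 of the 8 were called where 7.33% of all genes were. *Ebi3* had an interaction of 0.89 (SE 0.15, adjusted p = 0.0014) and *Il6st* of -0.87 (SE 0.13, adjusted p = 0.00065). In that reading the IL-4 change with Wnt3a was 0.17 for *Ebi3* (adjusted p = 0.41) and -0.29 for *Il6st* (adjusted p = 0.096), against -0.72 and 0.58 without Wnt3a. *Il10ra* stood next (0.41, adjusted p = 0.051), and with the mouse as a block it was called (0.41, adjusted p = 0.048). The *Ebi3* call was lost without mouse 3 (adjusted p = 0.091).

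Other genes of the pathway were taken from 5 lists. Of 15 further ligands of both families, 2 passed the count filter. *Il12b*, the gene of the p40 subunit of IL-12 and IL-23, had 1, 2 and 0 counts untreated and 0, 1 and 2 with IL-4, but 28, 13 and 10 in the difference and 10, 10 and 5 in the remainder. It was called higher in both (adjusted p = 0.00074 and 0.011), the latter call being lost without mouse 1 (0.057) or mouse 3 (0.059). *Il12b* passed the count filter through Wnt3a-treated libraries alone, so these calls are not independent of the filter. *Clcf1*, a gp130 cytokine with no untreated library at 10 counts, was called higher in the remainder (4, 5 and 5 counts untreated against 20, 17 and 14, adjusted p = 0.0028). Neither was called with IL-4 alone (0 of 2 by edgeR and by DESeq2, with 1 at an unadjusted p under 0.05), where edgeR called 3.4% of all genes. *Ebi3* is related to the p40 subunit in structure, and these genes of subunits moved in opposite directions.
Of 14 further receptor chains, 6 were tested, and IL-4 called 2 higher, the difference 2 higher and 1 lower, and the remainder 4 higher and 1 lower, beside 3.4%, 23.2% and 25.3% of all genes called. The median log2 fold changes of the 6 were 0.43, 0.41 and 1.53. *Il27ra*, which encodes the chain that pairs with gp130 to bind IL-27, had 1.99, 1.93 and 1.25 CPM untreated and 6.23, 8.12 and 6.42 with IL-4. It had 2.86, 5.92 and 4.43 CPM in the difference and 8.88, 9.96 and 11.1 in the remainder, with every treated library above every untreated one. The log2 fold changes were 2.0 with IL-4 (adjusted p = 0.00039), 1.34 in the difference (adjusted p = 0.0021) and 2.52 in the remainder (adjusted p = 5.2e-06), and the remainder exceeded the difference by 1.18 (adjusted p = 0.0075). The receptor chain of IL-27 was thus higher in the libraries in which *Ebi3* was lower.
*Il20rb*, a chain of receptors for IL-19, IL-20 and IL-24, had 9.81, 7.37 and 7.36 CPM in the remainder, where no other library exceeded 1.60. Its log2 fold change in the remainder was 3.35 (adjusted p = 3.7e-07), while the difference gave 0.75 (adjusted p = 0.089). *Il11ra1*, the IL-11 receptor chain, was higher with IL-4 (17.8 to 31.2 CPM, log2 fold change 0.82, adjusted p = 0.0022) and in the remainder (31.3 CPM, 0.82, adjusted p = 0.00032), and the difference had 18.6 CPM (0.07, adjusted p = 0.76). *Il12rb1*, with a mean of only 0.279 CPM untreated, was called higher in the remainder (2.24, adjusted p = 0.002) and in the difference (1.56, adjusted p = 0.03). The latter call was lost with DESeq2 (adjusted p = 0.052) and without mouse 1, 2 or 3 (0.14, 0.14 and 0.097). *Il12rb2* was lower in both (-0.94, adjusted p = 0.00024, and -0.77, adjusted p = 0.0009). Without mouse 3, calls were also lost for *Il27ra* with IL-4 (adjusted p = 0.051), in the difference (0.072) and between the parts (0.22), for *Il11ra1* with IL-4 (0.13) and for *Il12rb2* in the remainder (0.061).

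Of 11 kinases, STATs and inhibitors, all tested, IL-4 alone called 0 by edgeR and by DESeq2 (2 at an unadjusted p under 0.05). With IL-4, edgeR called 3.4% of all genes. The difference called 6, all higher, and the remainder 7 higher and *Ptpn6*, a phosphatase gene, lower, beside 23.2% and 25.3% of all genes called. The medians of the 11 were 0.05, 0.62 and 0.47 on the log2 scale. *Jak2* rose from 22.1 ± 5.73 CPM (SD, n = 3) to 70.0 ± 17.9 in the difference and 71.6 ± 22.1 in the remainder (log2 fold changes 1.67 and 1.70, adjusted p = 0.00012 and 8.5e-05). *Stat3*, which carries the signals of these receptors, rose too, by 0.62 and 0.47 (adjusted p = 3.7e-05 and 0.00037). *Socs1* and *Cish*, inhibitors of JAK signaling, were higher in the remainder than in the difference (1.92, adjusted p = 0.00036, and 1.41, adjusted p = 0.0043), whereas *Socs3*, which binds gp130, was not distinguished between them (-0.27, adjusted p = 0.51). Without mouse 3 the calls between the parts were lost for *Socs1* (adjusted p = 0.054) and *Cish* (0.15), as was that of *Ptpn6* in the remainder (0.065). Receptor genes *Il10ra*, *Il6ra* and *Il12rb2* thus fell in both kinds of library in which *Jak2* and *Stat3* rose. The other receptor chains did not share this: *Il10rb* and *Il6st* were called lower in the difference only. *Il27ra* and *Il12rb1* were called higher in both, and *Il20rb* and *Il11ra1* in the remainder.
Of 15 genes known to respond to STAT3 or IL-10, 4 rose with IL-4, 8 rose and 5 fell in the difference, and 7 rose and 4 fell in the remainder, beside backgrounds of 3.4%, 23.2% and 25.3%. The medians of the 15 were 0.02, 0.44 and 0.30. *Il1rn*, the gene of the IL-1 receptor antagonist, rose from 11.5 ± 1.01 to 31.9 ± 6.98 and 52.6 ± 9.14 CPM (1.48 and 2.19, adjusted p = 1.7e-05 and 3.2e-07), and *Bcl3* rose by 0.79 and 0.63. *Ccnd1* and *Myc*, genes of cell growth, rose with IL-4 (0.95 and 0.77, lost without mouse 3 at adjusted p = 0.15 and 0.27) and fell in both Wnt3a libraries. The list therefore did not move in 1 direction in libraries in which *Il10* fell.

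Of 13 regulators of *Il10* or *Il6* transcription and mRNA decay, IL-4 called 2 higher and 2 lower, the difference 4 higher and 5 lower, and the remainder 4 higher and 4 lower, beside 3.4%, 23.2% and 25.3% of all genes called, with medians of 0.19, -0.03 and -0.10. *Maf*, which encodes an activator of *Il10* transcription, had 265 ± 19.4 CPM (SD, n = 3) untreated and fell to 178 ± 31.4 with IL-4 (log2 fold change -0.58, adjusted p = 0.026, but 0.077 without mouse 2 and 0.2 without mouse 3). It stood at 152 ± 6.03 in the difference (-0.80, adjusted p = 0.00055) and 118 ± 21.7 in the remainder (-1.17, adjusted p = 1.8e-05). *Nfil3*, a transcription factor gene, rose by 1.62, 1.78 and 2.62 in the same order. *Bhlhe40*, the gene of a repressor of *Il10*, was called in the remainder alone among the 3 (1.39, adjusted p = 2.6e-06), where it exceeded the difference by 1.16 (adjusted p = 0.0001).
*Nfkbiz*, which encodes a nuclear IκB protein needed for *Il6* transcription, fell by 0.97 in the difference and by 2.07 in the remainder (adjusted p = 0.00054 and 6.7e-07). *Arid5a*, whose product stabilizes *Il6* mRNA, rose by 1.93 and 1.97 (adjusted p = 3.2e-07 and 1.8e-07). *Cebpd* was lower with IL-4 (-0.87, adjusted p = 0.00036) and in the remainder (-1.18, adjusted p = 3.1e-06), but gave -0.02 in the difference (adjusted p = 0.93). For *Il6* itself, no change could be read beside these. The summed level of 5 dendritic cell markers, of which 2 passed the count filter, ran from 0.965 to 1.40 CPM untreated, 1.59 to 1.74 with IL-4, 2.98 to 7.67 in the difference and 8.48 to 21.1 in the remainder. *Ccr7*, which activated macrophages can express too, made up most of the sum in the Wnt3a-treated libraries, with means of 0.257 CPM untreated, 0.405 with IL-4, 4.05 in the difference and 11.3 in the remainder. *Zbtb46*, the other marker that passed, had means of 0.372 CPM untreated, 0.728 with IL-4, 0.472 in the difference and 1.13 in the remainder. It was called higher in the remainder (log2 fold change 1.56, adjusted p = 0.011 from edgeR). *Flt3*, *Xcr1* and *Siglech* had means of 0.213, 0.124 and 0.166 CPM in the remainder. The summed level of 6 neutrophil markers ran from 39.0 to 49.0, 50.9 to 60.1, 28.6 to 45.4 and 25.8 to 29.8 CPM in the same order. Those of 4 T cell, 3 B cell, 5 mast cell or basophil and 5 stromal markers were at most 5.45, 0.361, 4.58 and 29.9 CPM in any library. Their part in the results above was not tested.

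The genes most alike in pattern to each member, by Pearson correlation of log2 CPM over the 12 libraries among 11243 genes, included *Elmo1* (0.968) and *Hivep2* (0.962) for *Il10*. For *Ebi3* they were *Pim2* (0.97), *Marcksl1* (0.958) and *Mepce* (0.944), and for *Il6st* *Kcnk6* (0.966), *Cd300ld* (0.957) and *Pde12* (0.956). For *Il10ra* they were *Fxyd2* (0.973), *Igfbp4* (0.971) and *Zdhhc14* (0.963), for *Il10rb* *Necap1* (0.977), *Hist1h1c* (0.962) and *Zfp362* (0.961), and for *Il6ra* *Osgin1* (0.975), *Gas6* (0.971) and *Frat2* (0.968). *Osm* had no gene above 0.847 (*Mttp*). *Il27* was followed by *Gm10288* (0.94), *Cxcl10* (0.897) and *Gm28417* (0.82). The 12 libraries fall into 4 groups of mice with shared treatment, so these values describe the pattern of groups and carry no test.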

How the data were processed

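RNA of BMDMs was sequenced as single reads in 12 samples, 3 mice in each of 4 groups. To make the deposited raw counts per gene, the authors used Trimmomatic 0.36 for trimming, STAR 2.6.0 for alignment to mm10 and HTSeq-count 0.11.1 for counting, per the paper's methods and the labels. Symbols were paired with 48058 of 48526 Ensembl identifiers (99.0%), and lengths and positions came from GENCODE vM21 of the same build.

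The Wnt3a and Wnt3a+IL-4 columns were resolved into the difference and the remainder. A single edgeR 4.0.16 fit (R 4.3.3) of all 12 libraries with TMM scaling gave quasi-likelihood tests of the 12421 genes that had 10 counts or more in 3 or more libraries, with Benjamini-Hochberg adjustment over all genes tested, a threshold of 0.05 and no term for the mouse. The script was tested on simulated data. CPM use TMM-scaled library sizes. Depth, from 13342492 to 17453377 counts, sets the precision of *Il6*, *Lif*, *Il10* and *Il27*. The 3 mice measure the spread between animals.

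Named genes are the 10 members, at most 6 genes of each list (called with IL-4, in both Wnt3a libraries in 1 direction, or between these, by size of change), and the 3 genes most alike to each member in log2 CPM (prior count 2). Genes outside this rule (*Clcf1*, *Ptpn6*, *Etv3*, *Atf3*, *Kit* and overlapping genes) were named after their values were seen. Values of some genes that the rule names are not reported here. The members and lists were chosen with earlier results of these data known. The labels pair the samples by mouse. Deviations of same-mouse libraries from their group means correlated between -0.417 and 0.454 in 18 pairs, of which 6 were over 0.1. Alternatives were DESeq2 1.42.0, other scalings, filters and thresholds, only the groups compared, the mouse as block, each mouse or library left out, and the columns as deposited.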

Additional observations from a re-analysis of the deposited data

Results flagged for a closer look

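For 2 genes the IL-4 effect differed with and without Wnt3a by the interaction test, when the difference is read as the Wnt3a+IL-4 library and the remainder as the Wnt3a library. The interaction was 0.89 on the log2 scale for *Ebi3* (SE 0.15, adjusted p = 0.0014 from edgeR) and -0.87 for *Il6st* (SE 0.13, adjusted p = 0.00065 from edgeR). Under the opposite reading the values were 0.56 (adjusted p = 0.16) and -0.29 (adjusted p = 0.38). Over all genes tested, edgeR called 7.33% in the first reading and 0.105% in the opposite one. For *Il6st*, IL-4 against untreated gave 0.58, and the difference against the remainder, its counterpart in that reading, lay lower in all 3 mice, at 116 ± 7.36 against 141 ± 17.0 CPM (SD, n = 3). The labels do not settle the reading, and no value was used to choose between them. Some genes called with IL-4 alone also differed between the parts, and others were not called there. *Il11ra1* had 17.8 ± 2.94 CPM untreated, 31.2 ± 1.65 with IL-4, 18.6 ± 2.74 in the difference and 31.3 ± 0.755 in the remainder (SD, n = 3). *Cebpd* had 59.2 ± 4.54, 32.3 ± 2.59, 58.5 ± 1.35 and 26.1 ± 4.16 CPM in the same order. For both genes the remainder was thus nearer to the IL-4 libraries and the difference to the untreated ones. *Il27ra*, *Nfil3*, *Ccnd1*, *Myc*, *Etv3* and *Atf3* were called higher with IL-4 and also in the remainder against the difference. Without mouse 3 the calls between the parts were lost for *Il11ra1*, *Il27ra* and *Ccnd1* (adjusted p = 0.14, 0.22 and 0.06 from edgeR). *Maf* and *Kit*, called lower with IL-4, were not called between the parts (-0.37 and -0.53, adjusted p = 0.15 and 0.23 from edgeR), nor were *Il6st* and *Ebi3*. *Osm*, called lower with IL-4, lay the other way between the parts (0.34, adjusted p = 0.14 from edgeR). Which part held IL-4 was not tested.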

How the results depend on the processing

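The number of the 8 tested genes called was 3 for IL-4 against untreated, 7 for the difference, 4 for the remainder, 0 for remainder against difference, 3 and 5 for the difference and the remainder against IL-4, and 0 and 2 for the interaction with the remainder or the difference as Wnt3a+IL-4. With a log2 fold change of 1 or more in size required, these became 0 with IL-4, 1 in the difference, 2 in the remainder, 1 and 1 against IL-4 and 0 for the second interaction. At a threshold of 0.01, the difference called 4 and the remainder against IL-4 called 3. DESeq2 called 1 between remainder and difference, and 1 and 4 for the interactions. Total counts alone called 1 between remainder and difference and 4 for the second interaction. With all genes of at least 1 count tested, and with the columns as deposited, the first interaction called 2 each. Leaving out 1 mouse gave ranges of 0 to 2, 2 to 6, 4 to 5, 0 to 0, 2 to 3, 2 to 4, 0 to 0 and 1 to 3 in the order above, and leaving out 1 library gave 2 to 3, 5 to 7, 4 to 5, 0 to 1, 3 to 3, 3 to 6, 0 to 1 and 2 to 4. The cause of these shifts was not tested.

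Signs turned only for values that were not called. With the columns as deposited, the first interaction of *Il10* was 0.072 and *Il27* in the remainder against IL-4 was 0.13. With 1 mouse or library left out, *Il10rb* with IL-4 ran from -0.07 to 0.044, *Il6st* in the remainder from -0.11 to 0.06, *Il27* in the remainder against IL-4 from -0.40 to 0.29, and the first interaction from -0.042 to 0.086 for *Il10ra* and from -0.26 to 0.91 for *Il27*. Of 1574 single-gene alternatives, 1444 kept direction and call, 45 gained a call, 69 lost one and 16 turned sign. With the mouse as a replicate block, the second interaction called 3 genes against 2, adding *Il10ra* (0.41, adjusted p = 0.048), and no other call changed.

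Over all genes, total counts alone gave medians of -0.10 and -0.13 for the log2 fold changes of the difference and the remainder (-0.01 and -0.02 with TMM), and the members called with TMM in these comparisons lay below these medians as well. The split of calls became 1131 higher and 2238 lower in the difference (1462 and 1422 with TMM), 1293 and 2342 in the remainder (1687 and 1450) and 247 and 212 with IL-4 (287 and 135). The 422 genes called with IL-4 became 227 at 0.01, 133 with the fold requirement, 812 with all genes of at least 1 count, 708 with the columns as deposited and 88 without mouse 3. The 652 genes between remainder and difference became 279, 184, 1454, 0 (20 at an unadjusted p under 0.05) and 101 in the same order, 429 with only these groups fitted and 1188 without mouse 2. The 2884 and 3137 genes of the difference and the remainder became 1687 and 1960 at 0.01, 842 and 917 with the fold requirement and 1227 and 1388 without mouse 3. The 2519 and 2521 against IL-4 became 1659 and 1575, 835 and 733, and 1216 and 1041. The 13 of the first interaction became 165 with DESeq2, 575 with all genes of at least 1 count and 142 with the columns as deposited, and the 910 of the second became 472, 423, 1505 and 262 at 0.01, with the fold requirement, with all genes of at least 1 count and without mouse 3. Leaving out 1 library gave from 255 to 532 with IL-4, from 360 to 1182 between remainder and difference and from 0 to 43 for the first interaction, whose 0 arose without the untreated or the remainder library of mouse 3 (1586 and 1296 at an unadjusted p under 0.05). Leaving out 1 mouse gave from 0 to 26 for the first interaction (0 without mouse 3, 861 at an unadjusted p under 0.05) and up to 1429 for the second. The second interaction could not be defined on the columns as deposited, and an interaction has no fit of only the groups compared.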
